A study of Solanum lycopersicum with 6 samples.

Results

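A set of 73 tomato genes was described whose promoters carried strong losses of DNA methylation in all 3 sequence contexts in embryos without NRPD1. The genes were chosen from the authors' lists of regions that differ between genotypes, out of 27473 genes named in those lists. A gene was taken when its promoter, labelled as within 1 kb of the transcription start, held a region with a methylation level lower in the mutant by at least 25 percentage points in CG, by at least 40 points in CHG and by at least 20 points in CHH (where H is any base but G). The choice rests on the measured difference itself, so the losses below describe the chosen genes and were given no test. Both genotypes were of the dwarf cultivar Micro-Tom, grown under the same conditions, and embryos were collected 21 days after flowering. The wild-type group (WT) and the SlNRPD1 knockout group (nrpd1) had 3 bisulfite libraries each. The labels name neither the mutant allele nor the number of lines, nor how many plants stood behind the libraries. Each region carried 1 mean level per genotype, computed by the authors. No value of a single library was at hand and the read depth is unknown, so no replicate error can be attached to any level.

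RNA polymerase IV, of which NRPD1 is the catalytic large subunit, occurs in plants, and its short transcripts are turned into small interfering RNAs, which guide new methylation to matching DNA. In this pathway CHH methylation has to be laid down again after each replication. A CG or CHG site reads the same on both strands, and in Arabidopsis the methyltransferases MET1 and CMT3 copy their methylation onto the new strand. Methylation in all contexts is typical of transposons and other repeats, which in plants often lie close to genes. The identifiers of the 73 genes were not paired with names or products in the tables used here, and the RefSeq gene table matched 0 of them, so the genes are given by identifier and position and no function is stated.

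Each threshold alone was met by many more genes than all of them together. Of the genes with a listed promoter region within 1 kb, 42.7% met the CG threshold, 15.3% the CHG threshold and 37.7% the CHH threshold (973, 1166 and 6008 genes). Of the 884 genes with such a region in every context, the 73 members were 8.26%. Meeting the CHG and the CHH threshold together was more frequent than any pairing with CG. The 685 genes that did so were 58.7% of the CHG genes and 11.4% of the CHH genes. For CG and CHH, 253 genes met both, which were 26.0% of the CG genes and 4.21% of the CHH genes. For CG and CHG, 137 genes met both, 14.1% and 11.7% of the respective lists. Of the 612 genes that met the CHG and CHH thresholds but not the CG threshold, 538 had no listed CG loss in the promoter at all.

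The edges of the set were close on both sides. In CG, Solyc07g056130.1 was just inside with a loss of 25.1 points, and Solyc01g080350.3 was just outside with 24.9. In CHG, Solyc11g069610.3 entered with 40.1 points, whereas Solyc08g062330.3 missed with 39.99. In CHH, Solyc05g007500.4 entered with 20.2 points and Solyc08g080840.1 missed with 19.5. The set is therefore a cut through a continuous range of losses.

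In wild-type embryos these promoters were heavily methylated, and in nrpd1 the 3 contexts were left at very different levels. For each gene and context the promoter region with the largest loss was taken to stand for the gene. CG methylation had a median of 83.7% in WT (range 42.8 to 96.0) and 51.1% in nrpd1 (15.0 to 70.2). CHG methylation had a median of 76.3% in WT (43.6 to 92.2) and 22.9% in nrpd1 (3.42 to 48.7). CHH methylation had a median of 36.8% in WT (24.1 to 51.3) and 9.28% in nrpd1 (3.78 to 21.1). In CHH the ranges of the genotypes did not overlap, whereas in CG and CHG the least methylated WT promoters lay below the most methylated nrpd1 promoters. The rule itself keeps each WT level at or above the threshold of its context, so the separation in CHH is not independent of it. A further 736 genes had a promoter loss in every context but missed at least 1 threshold. Their CHH ranges overlapped, with WT levels from 11.6% and nrpd1 levels up to 24.2%.

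**Figure D1:**
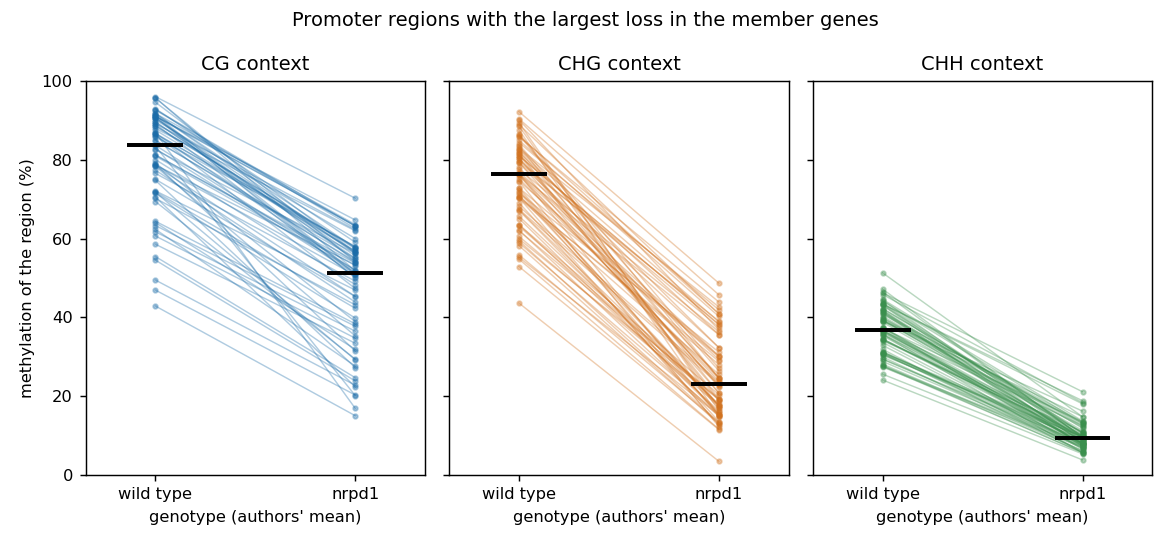
Methylation level (%) of the promoter region with the largest loss in each of the 73 genes, as the authors' mean in wild type and in nrpd1, for CG, CHG and CHH; each line is 1 gene and the black bars are medians. The medians go from 83.7% to 51.1% in CG, from 76.3% to 22.9% in CHG and from 36.8% to 9.28% in CHH.

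As a share of the WT level, most of the CG methylation stayed and most of the methylation in the other contexts did not. The median gene kept 60.3% of its WT level at CG sites, 30.6% at CHG sites and 25.1% at CHH sites. CG was the context with the largest share left in 68 of the 73 genes, and CHH the one with the smallest share in 51, followed by CHG in 21 and CG in 1. The thresholds differ between the contexts and bound the share that can be left, so these shares and counts are not independent of the rule. Over all listed promoter losses within 1 kb the median share left was 60.8% in CG, 49.1% in CHG and 29.5% in CHH. In nrpd1, CG methylation was still above 50% in 41 genes and below 30% in 12. CHG methylation was below 20% in 31 genes, and CHH methylation was below 10% in 48. A CHH level below 10% does not set the 73 genes apart. In the other 736 genes the upper quartile of the nrpd1 CHH level was 9.40%, so such a level was more frequent there. How many of the other 736 genes passed the CG and CHG levels was not counted. For comparison, the other 736 genes with a promoter loss in every context, which missed at least 1 threshold, kept a median of 65.9% at CG sites, 43.2% at CHG sites and 26.8% at CHH sites. Their nrpd1 medians were 49.8% in CG, 26.9% in CHG and 7.10% in CHH, which was below the 73 genes in CG and CHH and above them in CHG. Their WT medians were lower in every context, at 78.3%, 65.3% and 26.4%. The rule selects on the size of loss, so these differences between the sets are not independent of it, and they were not tested.

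Losses in CHG and CHH were ordered more alike over the genes than either was with CG. Over the 73 genes the losses in CHG and CHH correlated with Pearson's r = 0.40 and Spearman's rho = 0.39. For CG with CHG these were 0.07 and 0.16, and for CG with CHH -0.03 and 0.08. The points share their libraries, and each axis starts at its threshold, so these coefficients are descriptions and carry no p-value.

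Solyc06g060720.3 had the largest summed loss over the contexts. It lies on chromosome 6, and coordinates here are in the assembly SL4.0 as the tables give them. Its CG region at 36408999 to 36410429, with 49 CG sites, had 95.7% methylation in WT and 54.1% in nrpd1. CHG methylation over nearly the same stretch, 36408736 to 36410427, was 89.4% and 16.3%. CHH methylation over 36408612 to 36410612, a region that crosses the transcription start, was 41.3% and 7.14%. The 3 regions lay almost on top of each other, and the order of what was left followed the order of the medians, with 56.5% of the WT level in CG, 18.2% in CHG and 17.3% in CHH.

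Solyc12g013960.3 and Solyc02g068640.3 had a similar profile. In Solyc12g013960.3 the level was 89.1% in WT and 50.1% in nrpd1 in CG, 88.5% and 17.1% in CHG, and 38.8% and 9.56% in CHH. In Solyc02g068640.3 it was 88.5% and 57.6% in CG, 87.5% and 14.9% in CHG, and 41.5% and 8.36% in CHH. Both had more CHG than CHH methylation left in points, but a smaller share of their WT level in CHG than in CHH, 19.3% against 24.7% and 17.1% against 20.2%. Solyc02g068640.3 had 1 listed region per context and nothing else. Solyc11g016990.3 started from the highest CHH level of the set, 51.3%, and had 14.7% in nrpd1. Its CG level was 90.7% in WT and 50.9% in nrpd1, and its CHG level 83.5% and 20.8%.

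Another 2 of the 10 genes with the largest summed loss lost CG methylation far more completely than the rest. In Solyc05g051940.3, on chromosome 5, the CG region at 61713439 to 61713764 (12 CG sites) had 86.9% methylation in WT and 16.9% in nrpd1, the largest CG loss of the set at 70.1 points. CHG methylation over 61713536 to 61713826 was 43.6% and 3.42%, and CHH methylation over 61713089 to 61713882 was 28.1% and 6.15%. It thus combined the lowest nrpd1 CHG level of the set with a WT CHG level that was also the lowest. In Solyc03g005390.3, on chromosome 3, CG methylation at 235308 to 235523 (9 CG sites) was 83.4% in WT and 20.1% in nrpd1. Its CHG level was 72.9% and 29.9%, and its CHH level 39.2% and 16.2%. This was the 1 gene of the set in which CG was the context with the smallest share left, 24.1% of the WT level against 41.1% in CHG and 41.2% in CHH. With Solyc03g118840.3, Solyc03g096390.3 and Solyc09g091350.1, which were singled out after their values were seen, these were the 5 genes in which CG was not the context with the largest share left.

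The remaining genes of the leading 10 lay between these patterns. In Solyc12g088650.2 CG methylation was 78.8% in WT and 31.4% in nrpd1, CHG 72.2% and 17.6%, and CHH 40.98% and 8.81%, with all 3 regions crossing the transcription start. Solyc10g076515.1 had CG levels of 71.7% and 29.2%, CHG levels of 70.3% and 12.6%, and CHH levels of 35.6% and 5.58%. Its CHH share left, 15.7%, was the smallest of the set. Solyc09g007470.2 kept more CG, with 83.7% in WT and 51.4% in nrpd1, beside CHG levels of 76.3% and 14.8% and CHH levels of 46.4% and 9.57%. In Solyc12g014040.1 the levels were 69.4% and 29.4% in CG, 81.7% and 19.3% in CHG, and 39.2% and 10.7% in CHH. Its CG region held 4 CG sites, the fewest that the tables list, so this CG value rests on few sites. At the other end, Solyc01g094630.3 had the highest CG level left in nrpd1, 70.2% from 96.0% in WT. Its CHG level was 90.1% and 36.8%, and its CHH level 43.3% and 9.81%. The lowest CG level left, 15.0%, was that of Solyc04g054720.4, which also had the lowest WT CG level, 42.8%.

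The rule did not ask where in the promoter the losses lay, or whether those of different contexts coincided. In 56 of the 73 genes (76.7%) the 3 regions with the largest loss had at least 1 bp in common, by a median of 296.5 bp (range 5 to 1441). Among the other 736 genes with a loss in every context this share was 59.2%. The difference between the sets was not tested, and the sets were not matched for the width of their regions. CHG and CHH regions shared sequence in 68 genes (93.2%), CG and CHH in 61 (83.6%) and CG and CHG in 61 (83.6%). Among the other 736 genes these shares were 89.9%, 77.7% and 68.3%. Many of the narrower regions were nested in the wider ones. The CG region lay wholly inside the CHH region in 46 genes (63.0%) and the CHG region inside the CHH region in 49 (67.1%), against 44.97% and 60.1% among the other 736.

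In the 17 genes without a common stretch, the contexts were arranged in several ways, and in 7 of them the CG region touched neither of the others. These 7 were 9.59% of the 73 genes, against 13.7% of the other 736. In Solyc07g056130.1 the CG region was inside the gene, from 92 to 338 bp past the start, and the CHH region ended 120 bp before the start. In Solyc05g007500.4 the CHG region lay from 368 to 138 bp upstream, and the CG and CHH regions both lay farther upstream. In Solyc03g007090.1 the CG region fell inside the CHG region but beside the CHH region with the largest loss, and a CHH region of this gene with a smaller loss covered it. The CG level of these 17 genes was lower in both genotypes, with medians of 71.6% and 38.3%, than that of the 56 genes with a common stretch, 86.7% and 53.5%. The median CG loss was 30.8 points in both groups. CHG and CHH levels were closer, with WT medians of 72.8% and 76.7% in CHG and 34.1% and 38.1% in CHH, and the ranges overlapped in every context.

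**Figure D2:**
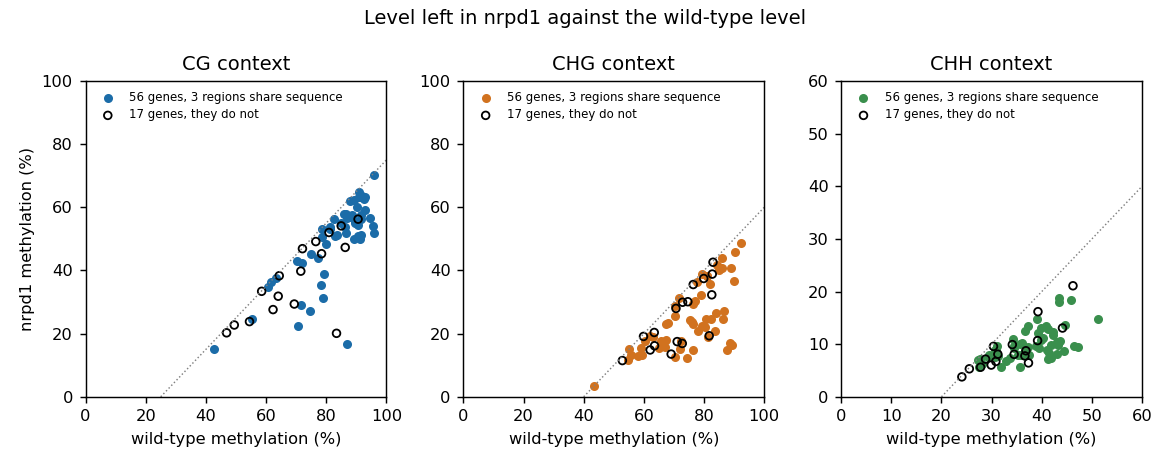
Methylation level in nrpd1 (%) against the level in wild type (%) for the promoter region with the largest loss in each of the 73 genes; filled points are the 56 genes whose 3 regions share sequence, open circles the 17 others, and the dotted line marks the threshold of the rule. CG levels in nrpd1 gather near 51.1%, and 2 genes near 16.9% and 20.1% lie far below the line from WT levels above 80%.

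Most regions lay upstream of the transcription start, and CHH regions came closest to it. The promoter label of the tables reached 1000 bp upstream and 250 bp into the gene. The CHG region was wholly upstream in 65 genes (89.0%), the CG region in 56 (76.7%) and the CHH region in 49 (67.1%). Among the other 736 genes these shares were 83.7%, 77.3% and 73.9%. The start itself was covered by the CHH region in 24 genes (32.9%), by the CG region in 13 (17.8%) and by the CHG region in 8 (10.96%). For the other 736 genes the shares were 24.2%, 15.6% and 12.1%, and the differences were not tested. In 4 genes (5.48%) the CG region began inside the gene, which no CHG or CHH region did. Among the other 736 genes this held for 7.07% of CG, 4.21% of CHG and 1.90% of CHH regions. The median distance of the nearer edge from the start was 86 bp for CHH, 247 bp for CG and 281 bp for CHG. The CHH regions also reached farthest away, with the outer edge at a median of 1428 bp upstream, against 1010 bp for CHG and 697 bp for CG.

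**Figure D3:**
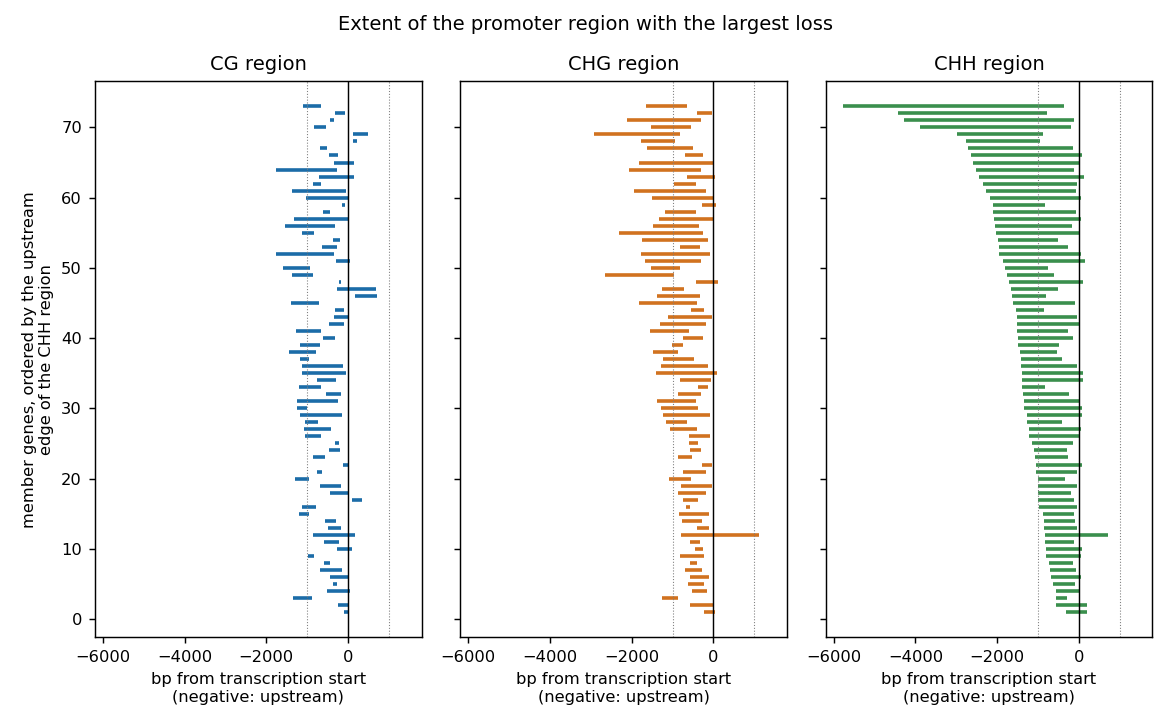
Extent of the promoter region with the largest loss in each of the 73 genes, in bp from the transcription start (negative is upstream), for CG, CHG and CHH, with genes in the same order in each panel; dotted lines mark 1000 bp on either side. The regions sit on the upstream side, and the CHH regions are the widest, with a median of 1242 bp.

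The regions of the 73 genes were wide. The median width was 360 bp in CG, 655 bp in CHG and 1242 bp in CHH, whereas over all listed promoter losses within 1 kb it was 229, 331 and 713 bp. All listed losses can include several per gene. With 1 largest-loss region per gene, as for the members, the other 736 genes had medians of 239, 419.5 and 785.5 bp. Cytosines numbered a median of 15 in CG, 17 in CHG and 276 in CHH, against 12, 11 and 155 over all such losses. Per 100 bp, however, the 73 genes had fewer CG and CHG sites, with medians of 4.34 and 2.57 against 5.32 and 3.51, and a similar number of CHH sites, with 21.5 against 21.4. In the other 736 genes the medians per 100 bp were 5.20 in CG, 3.05 in CHG and 21.1 in CHH. For 4 genes the CHH region reached 3 kb or more, the widest being that of Solyc07g049430.3 with 5427 bp. How width relates to the size of loss was not tested.

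All listed losses around the start were also counted by position, whichever gene they had been assigned to. Both sets were chosen for losses under a promoter label that reaches 1000 bp upstream and 250 bp into the gene, so the upstream maximum and the fall inside the gene are largely set by the choice and are given as a description. CHH losses covered the position 550 bp upstream in 89.0% of the 73 genes, the start itself in 37.0% and the position 500 bp inside the gene in 6.85%. CHG losses were most frequent 550 bp upstream, in 68.5% of genes, and covered the start in 10.96% and the position 500 bp inside in 1.37%. CG losses were most frequent 300 bp upstream, in 46.6%. In the other 736 genes CHH losses covered the start in 26.1% and the position 500 bp inside in 9.51%, and CHG losses in 12.9% and 8.42%. Their maxima were 77.7% for CHH and 47.8% for CHG at 500 bp upstream, and 28.9% for CG at 200 bp upstream. Beyond the 1 kb of the rule, at 1500 bp upstream, the 73 genes had a CHH loss in 53.4%, a CHG loss in 30.1% and a CG loss in 9.59%. For the other 736 genes these shares were 43.3%, 13.2% and 2.17%. At 2000 bp upstream the CHG shares were 12.3% and 12.5% and the CHH shares 46.6% and 39.4%. Wide regions that met the rule near the start also reach beyond 1 kb, so these shares are not independent of the choice.

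**Figure D4:**
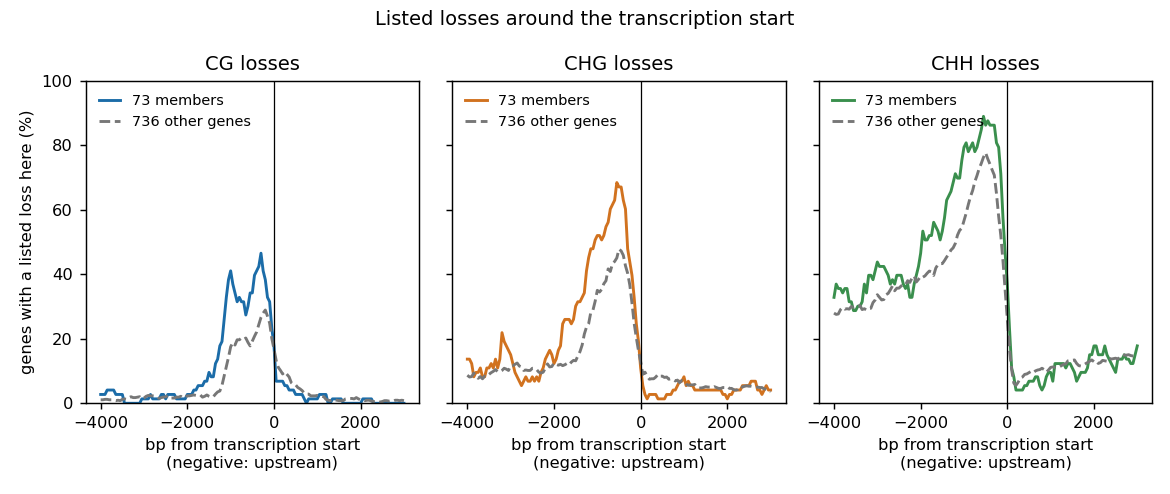
Share of genes (%) with a listed loss at each distance from the transcription start in bp (negative is upstream), for the 73 members (solid) and the other 736 genes with a promoter loss in every context (dashed), per context. Both sets were chosen for losses near the start; the members have a maximum of 89.0% of members for CHH and 68.5% for CHG at 550 bp and 46.6% for CG at 300 bp upstream.

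In all, 552 listed regions were assigned to the 73 genes, of which 114 were CG, 177 CHG and 261 CHH regions. The median gene had 6 regions (range 3 to 34), and the other 736 genes also had a median of 6. In the promoter within 1 kb all 236 regions were lower in nrpd1, and 74 CG, 73 CHG and 74 CHH regions of these met the thresholds. Those are losses by the rule, so only the 3 CG, 2 CHG and 10 CHH regions that missed a threshold could have been higher. The promoter at 1 to 2 kb held 36 losses in 28 genes. The largest remaining class was distal intergenic, with 226 losses assigned to 45 of the genes. In these distal losses the median share of the WT level left was 31.0% in CHH and 60.2% in CG. Their medians were 79.8% in WT and 45.8% in nrpd1 in CG, 74.2% and 37.1% in CHG, and 27.4% and 8.25% in CHH, at a median distance of 3700 to 4869 bp from the start. In CHG the median distal region kept 52.0% of its WT level, beside the 30.6% in the promoters, whose large loss was a condition of the choice.

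Losses in gene bodies were less frequent. Exons, introns or untranslated regions held 33 losses assigned to 21 of the 73 genes (28.8%), against 31.9% of the other 736 genes. For 2 of these losses the annotated feature belonged to a neighbouring gene, which leaves 31 losses in 19 genes that lay on the gene itself. Of the 33 losses, 20 were in CHH, 9 in CHG and 4 in CG. The CHH losses in bodies had a median of 23.7% in WT and 5.995% in nrpd1, and the CHG losses 54.5% and 22.0%. Solyc11g016990.3 had 3 such losses, all in introns. In its first intron CHG methylation was 49.2% in WT and 22.0% in nrpd1 and CHH methylation 24.2% and 9.08%, and in a later intron CHG methylation was 26.3% and 3.77%.

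**Figure D5:**
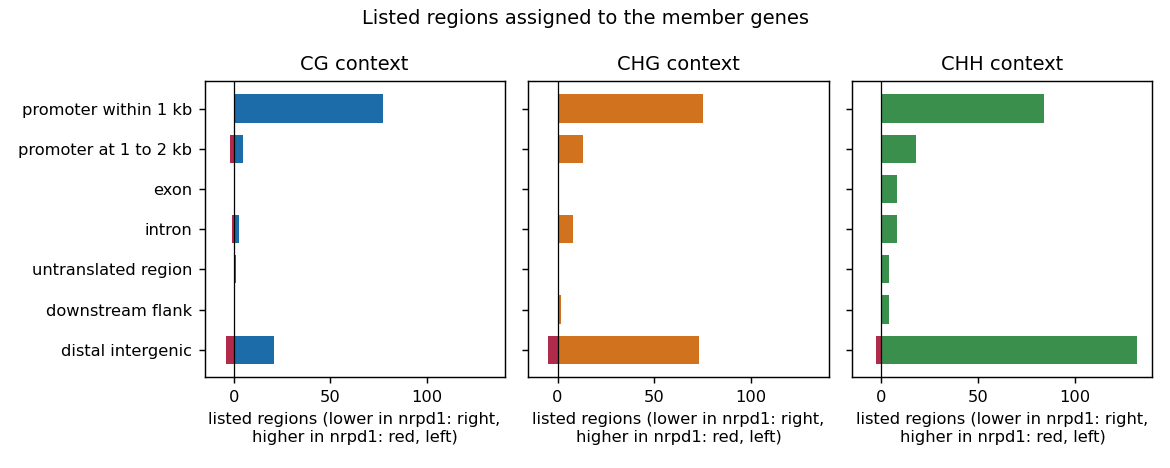
Number of listed regions assigned to the 73 genes by annotated feature and context, with regions lower in nrpd1 to the right and regions higher in nrpd1 to the left in red. Promoters within 1 kb hold 77 CG, 75 CHG and 84 CHH regions, all lower, most of them by the rule. The 15 higher regions lie in distal sequence, in promoters at 1 to 2 kb and in 1 intron.

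Regions with more methylation in nrpd1 were few and none lay in a promoter within 1 kb. There were 15 of them (2.72% of the 552 regions) in 11 genes, against 9.44% over all listed regions. By context they were 7 in CG, 5 in CHG and 3 in CHH, or 6.14%, 2.82% and 1.15% of the members' regions, where the background is 32.3%, 12.0% and 4.15%. The 552 regions include the 74 CG, 73 CHG and 74 CHH regions that met the thresholds. These are losses by the rule, so they lower the members' shares of gains below what the other regions alone would give. The shares are therefore not like for like with the background, and no test was made of them. In 12 of the 15 the region was distal intergenic.

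Gains next to the losses were found in 2 promoters. In Solyc04g054720.4 CG methylation 1541 bp upstream of the start was 5.72% in WT and 24.0% in nrpd1, over 135 bp with 20 CG sites. The CG loss of the same gene, from 42.8% to 15.0%, lay 957 bp upstream. In Solyc12g038650.1 CG methylation 1633 bp upstream was 21.8% in WT and 48.7% in nrpd1. The gain inside a gene was in the first intron of Solyc01g080110.3, where CG methylation was 25.5% in WT and 45.96% in nrpd1. In Solyc06g060720.3 a CG region of 77 bp with 5 sites, 3794 bp upstream, was at 67.9% in WT and 91.9% in nrpd1, between the promoter loss and a distal CG loss from 68.1% to 24.2%.

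The other gains were distal. Solyc07g049430.3 and Solyc02g065340.3 each had 2 gains in 1 context, in CG and in CHG, and Solyc02g021640.3 had a CG and a CHH gain. Solyc10g012370.3 had a CHG gain from 70.2% to 89.7% at 9112 bp and a CHH gain from 16.1% to 26.5% at 20323 bp from the start. Single gains were listed for Solyc01g010970.3 and Solyc08g014470.4 in CHG and for Solyc09g061230.3 in CHH. The 3 CHH gains of the set reached at most 10.9 points.

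A few genes stood in the middle of many losses. Solyc01g010970.3, on chromosome 1, had the most listed regions, 34, of which 33 were lower in nrpd1. The nearer edges of these 33 losses lay between 10339 bp upstream and 29774 bp past its start, and its 1 gain lay at 33650 bp. The promoter within 1 kb accounted for 1 region per context, and the promoter at 1 to 2 kb held 2 more losses. Its levels within 1 kb were 81.2% in WT and 53.7% in nrpd1 in CG, 63.1% and 19.1% in CHG, and 39.8% and 13.1% in CHH. Solyc03g007090.1 followed with 19 regions, all lower in nrpd1, and Solyc10g012370.3 with 17, of which 15 were lower. The tables assign each region to 1 gene, and most regions of these genes were distal.

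The 73 genes were spread over all 12 chromosomes and mostly lay apart from each other. Chromosome 2 had 10 of them and chromosome 11 had 2, beside 59 and 67 of the other 736 genes. The outer 20% at either end of the chromosomes held 60 of the 73 genes (82.2%), and 86.3% of the other 736. Genes were on the plus strand in 39 cases and on the minus strand in 34. Gene length had a median of 3261 bp (318 to 22518), against 2955 bp for the others. The gap to the next named gene on the upstream side had a median of 8062 bp, against 6031 bp, and was under 2 kb in 5 genes (6.85%), against 12.1%. For 1 gene, Solyc01g005950.4, named after its value was seen, the neighbour at such a distance was transcribed in the opposite direction. The smallest gap, 691 bp, was that of Solyc08g008060.1, likewise named after its value was seen. Its CG region lay from 986 to 837 bp upstream, past the near end of that neighbour. Genes without any listed region are not named in the tables, so the true gaps can be smaller.

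In 3 places members lay within 100 kb of each other. Solyc06g060700.1 and Solyc06g060720.3 were 14998 bp apart on chromosome 6 with 1 named gene between them. Solyc06g060700.1 had promoter levels of 88.6% in WT and 57.4% in nrpd1 in CG, 74.5% and 12.2% in CHG, and 31.8% and 5.69% in CHH, and its WT level was below that of its neighbour in each context. The other pairs were Solyc08g007270.4 with Solyc08g007310.3, 15834 bp apart, and Solyc12g013960.3 with Solyc12g014040.1, 64734 bp apart. Both genes of the chromosome 8 pair were among the 17 in which the regions of the 3 contexts had no common stretch.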

How the data were processed

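Genomic DNA of embryos was bisulfite-converted, per the labels' protocols. Trim Galore 0.6.7 and Bismark 0.24.0 are named in the submitters' processing notes. Which program called and annotated the regions, with which cutoffs, and how deep and how well converted the libraries were is not given in the sources used here. The authors deposited 3 tables of regions (13010 in CG, 42277 in CHG, 76805 in CHH), in which the level of a region is a fraction, 1 mean per genotype, per the file headers. The smallest listed difference was 10.0 points. The deposited region statistic is a score of the authors with no stated formula and served for 1 alternative. Incomplete conversion would raise apparent methylation, mostly in CHH.

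From these, levels were turned into percentages and differences into points with pandas 2.3.3, and genes were selected by the rule. Selection and overlap were tested on simulated data. No test between samples was possible, since the tables hold means. Named genes were the 10 with the largest summed loss, those next to a threshold, those with a gain, those with the lowest and highest CG level in nrpd1 and those with the most regions. Members, lists and the rule were chosen with earlier results of these data known. Annotated products and promoter sequences were not analysed here.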

Additional observations from a re-analysis of the deposited data

How the results depend on the processing

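The number of genes depended on the thresholds and the promoter window. It was 242 with all thresholds 5 points lower, 20 with all 5 points higher, 119 with the CG threshold alone 5 points lower and 154 with promoters up to 2 kb. Under the other alternatives it lay within 1.5 times of 73. The share of the WT level left moved with all thresholds lowered or raised by 5 points, to 64.3% and 56.4% in CG and to 36.3% and 23.8% in CHG. Keeping the 50% of regions with the larger region statistic left 7 gains and 12 genes with a body loss. This filter drops 50% of the listed regions of each context, so these counts can only fall or stay the same. Other causes of the changes were not tested. The number of genes whose regions share sequence was 54 when 50% of the shortest region had to be shared and 58 when any qualifying region counted. No paired analysis was possible because the tables hold means per genotype, and leaving out single libraries could not be done for the same reason. Depth is unknown. In 14 genes the CG region and in 13 the CHG region held fewer than 10 cytosines, which limits the precision of those levels.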
